A study of Mus musculus with 8 samples.

Results

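Cycling immune cells of E0771 mammary tumors were the 332 cells that held at least 3 transcript molecules (UMIs) of Mki67 and Top2a together, chosen by these 2 genes from 10605 cells of 8 tumors (3.13%). They were split by a gate of at least 2 UMIs of Cd3d, Cd3e, Cd3g and Ncr1 into 191 T or NK cells and 141 other cells, called myeloid here, and were set against the 762 T or NK and 8059 myeloid cells of the same mice without a UMI of Mki67 or Top2a. Cells with 1 or 2 UMIs of the pair (331 T or NK and 1121 myeloid) entered neither side. The values of Mki67 and Top2a are therefore a description of the choice, with no test.

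E0771 is a mouse mammary tumor line, and E0771-Res1 and E0771-Res2 are lines that the study established from E0771 tumors that relapsed after combined therapy. Each line is thus the product of a relapsed tumor, so lines and not only mice set the number of independent resistant tumors. Single-cell RNA-seq was deposited for CD45+ cells sorted from tumors on day 18 after implantation, with 2 mice of the parental E0771 group, 3 of E0771-Res1 and 3 of E0771-Res2. Cells of the mice were labeled with multiplexing oligos and pooled before droplet capture, and the total per mouse ran from 5036667 to 18894504 UMIs over all deposited cells. No drug given to these mice is named in the labels, and the strain and age of these hosts are not stated, although the study grew E0771 in C57BL/6 mice in other experiments. No cell barcode was shared between libraries.

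A dividing cell passes from G1 into S phase, in which the MCM helicase, PCNA, the nucleotide enzymes and the histone genes are used to copy the genome, and then through G2 into mitosis, in which cyclin B, Aurora and Polo kinases and the kinetochore act. Ki-67 (Mki67) coats mitotic chromosomes, topoisomerase II alpha (Top2a) untangles replicated DNA, PAF15 (Pclaf) binds PCNA at the fork, and survivin (Birc5) belongs to the chromosomal passenger complex. Activated T cells and some NK cells divide in tumors, and tumor macrophages arise mostly from monocytes while a part of them divides in place. The late genes of the cycle are known to be held silent in G0 and switched on in G2 through complexes that bind the cell cycle genes homology region (CHR, TTTGAA), often beside CCAAT boxes bound by NF-Y.

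The 250 bases before the RefSeq start of the 4 markers are shown because the choice of cells rests on Mki67 and Top2a and the check of it on Pclaf and Birc5, with each CHR and each CCAAT box, on either strand, in capitals, 5′ to 3′ on the strand of the gene, in build GRCm38.p6 at chr7:135716380-135716629 (minus strand), chr11:99024190-99024439 (minus strand), chr9:65890073-65890322 (plus strand) and chr11:117848987-117849236 (plus strand).
Mki67: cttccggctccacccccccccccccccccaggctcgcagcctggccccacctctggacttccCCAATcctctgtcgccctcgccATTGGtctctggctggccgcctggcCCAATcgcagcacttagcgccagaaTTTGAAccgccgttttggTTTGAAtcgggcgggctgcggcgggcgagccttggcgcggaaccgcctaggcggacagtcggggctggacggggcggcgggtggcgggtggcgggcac
Top2a: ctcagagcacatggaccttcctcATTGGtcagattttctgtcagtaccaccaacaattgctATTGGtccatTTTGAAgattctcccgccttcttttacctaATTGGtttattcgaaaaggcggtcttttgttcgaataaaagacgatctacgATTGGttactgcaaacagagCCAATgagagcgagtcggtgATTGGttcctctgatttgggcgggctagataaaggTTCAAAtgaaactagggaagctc
Pclaf: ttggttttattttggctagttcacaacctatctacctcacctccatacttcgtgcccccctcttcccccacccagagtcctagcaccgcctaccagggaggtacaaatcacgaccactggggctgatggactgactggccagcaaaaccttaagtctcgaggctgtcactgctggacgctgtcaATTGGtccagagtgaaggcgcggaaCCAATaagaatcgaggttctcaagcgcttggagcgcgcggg
Birc5: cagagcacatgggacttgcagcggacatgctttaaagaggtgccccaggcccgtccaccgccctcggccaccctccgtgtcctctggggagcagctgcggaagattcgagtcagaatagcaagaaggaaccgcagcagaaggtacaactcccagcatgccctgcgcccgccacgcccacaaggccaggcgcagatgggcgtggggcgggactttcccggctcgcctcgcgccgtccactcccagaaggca

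Mki67 held 2 CHR and 3 CCAAT matches in this window and Top2a held 2 CHR and 6 CCAAT matches, whereas Pclaf held 2 CCAAT boxes and Birc5 neither word. Among 27025 mouse promoters of the same length, 18.3% held a CHR, 37.5% a CCAAT box and 6.45% both. Of the 45 genes with a promoter in a 52-gene G2M list, 40.0% held a CHR, 75.6% a CCAAT box and 33.3% both, and for 44 kinetochore, spindle and cytokinesis genes the shares were 31.8%, 61.4% and 27.3%. Of 29 genes of chromatin and nuclear growth, 51.7% held a CHR, 82.8% a CCAAT box and 48.3% both, the highest shares of these lists. Of 22 genes of nucleotide supply, 9.09% held a CHR, 45.5% a CCAAT box and 0 both. A match describes these letters in this window only.

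The markers that the choice did not use were present in most cycling cells. Pclaf was detected in 72.0% and Birc5 in 68.1% of the 332 cells, and 184 cells held all 4 markers. In cells thinned to 3000 UMIs, Pclaf was found in 61.4% of cycling T or NK cells and 43.2% of cycling myeloid cells, against 3.65% and 2.13% of the non-cycling cells. Birc5 was found in 49.2% and 44.7% against 2.63% and 2.48%. The shares of non-cycling cells, of 2.13% to 3.65%, were the lowest against which the cycling shares could be read.

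Cells just inside the gate looked less clearly cycling than the rest. The pair Mki67 and Top2a ranged from 3 to 93 UMIs in a cycling cell, with a median of 9. The 75 cells with exactly 3 UMIs held a median of 28 UMIs of the S and G2M phase lists, which leave out the pair, and the 280 cells with exactly 2 UMIs, just outside, held a median of 21. The 162 cells with at least 10 UMIs held a median of 243, and all non-cycling cells a median of 12.

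Cycling cells were deeper than the cells they were set against. A fixed number of UMIs is reached more easily in a deep cell, and the part of the choice in this difference was not tested. Cycling T or NK cells held a median of 15889 UMIs against 7557, and cycling myeloid cells 13047 against 6714. Shares of cells passing a gene gate were therefore compared between cycling and non-cycling cells after thinning to 3000 UMIs per cell, which kept 189 and 132 cycling and 684 and 6729 non-cycling cells. The shares of cycling cells by tumor are at deposited depth. Comparisons of genes were repeated against non-cycling cells matched on depth. One matched cell per cycling cell reached a median of 13057 UMIs in the myeloid and 13966 in the T or NK split, the latter a partial match, and 5 per cycling cell reached 13029 in the myeloid split but only 7955.5 in T or NK cells, where no match of depth was had. Only 3 deposited cells had more than 6000 genes, the upper bound of the study's filter, and all 3 met the cycling gate.

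Leukocyte markers were found in nearly all cells. The summed level of 6 pan-leukocyte genes was 60.2 UMIs per 10000 in cycling and 68.5 in non-cycling cells, with Cd52 the most abundant, and 8 of 332 cycling cells had no UMI of Ptprc, the gene of CD45. The sum was 54.7 in cycling and 68.3 in non-cycling myeloid cells, and lowest at 44.6 in the cycling myeloid cells of E0771-Res2 replicate 3. At deposited depth at least 2 UMIs of tumor or stromal genes were held by 22 of 332 cycling cells (6.63%; 8.51% of the myeloid ones) and by 2.48% of the shallower non-cycling cells. The T or NK gate, however, also took in cells with much myeloid RNA. The 10 pan-myeloid genes (Lyz2, Tyrobp, Fcer1g, Csf1r and others) summed to 65.3 UMIs per 10000 in cycling and 168 in non-cycling T or NK cells, beside 181 and 266 in the myeloid split. Of cycling T or NK cells 66.5% lay under 60 pan-myeloid UMIs per 10000, and of non-cycling T or NK cells 29.0%. Because this difference goes with the comparison, many of the T or NK results are set beside values for lineage-clean cells. These are T or NK cells under 60 and myeloid cells of at least 80 pan-myeloid UMIs per 10000. Lineage-clean cells were not matched on depth. Among the T or NK cells kept for thinning, lineage-clean ones had a median of 15373.5 UMIs in cycling and 5624 in non-cycling cells. For all T or NK cells kept for thinning the medians were 15978 and 8175.5, a narrower gap. The part of depth in the lineage-clean values was not tested. Of the cycling myeloid cells, 13 of 141 (9.22%) lay under 60, and of the non-cycling myeloid cells 156 of 8059 (1.94%). In lineage-clean myeloid cells 48 of the 50 named genes called in all cells were still called, all but Bub3 (0.495, adjusted p = 0.0641) and Krt8 (0.754, adjusted p = 0.445).

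Markers of cells outside the T, NK and myeloid lineages were at low levels, whereas NK and dendritic genes were found in the cycling myeloid cells. The 11 tumor epithelial genes summed to 0.153 UMIs per 10000 in cycling T or NK and 0.289 in cycling myeloid cells (0.188 and 0.148 in non-cycling cells), with 1.34 in cycling myeloid cells of E0771-Res2 replicate 3, Cdh1 and Krt8 the most abundant and Krt14, Krt5, Krt19 and Cldn4 at 0 in both cycling sets. Fibroblast genes summed to 0.0214 and 0.0637 (0.0515 and 0.0753 in non-cycling cells), with Sparc the most abundant and Col1a1, Col1a2, Col3a1 and Dcn at 0. Progenitor genes summed to 0.235 and 0.162 (0.126 and 0.0669 in non-cycling cells), with Kit the most abundant and Cd34, Elane and Ctsg at 0. The 13 neutrophil genes summed to 0.351 and 0.441 (0.652 and 1.54 in non-cycling cells), with Csf3r the most abundant and Ly6g, Ngp and Elane at 0. The 9 B cell genes summed to 0.969 and 1.24 (0.978 and 0.703 in non-cycling cells), with Ighm the most abundant and Jchain at 0. The 12 NK genes, Gzma the most abundant and none at 0, summed to 3.82 in cycling and 2.33 in non-cycling myeloid cells, with 11.7 in E0771-Res1 replicate 3 and 12.1 in E0771-Res2 replicate 3 and 0.317 to 4.72 in the other mice. Conventional dendritic genes, Irf8 the most abundant, summed to 5.80 in cycling and 4.10 in non-cycling myeloid cells, with 13 in E0771 replicate 3. Mature dendritic genes (4.09 and 5.36) and plasmacytoid dendritic genes (16.6 and 25.6, mostly Bst2) were lower in cycling myeloid cells. The part of these cells in the myeloid results was not tested.

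Whether resistance changed how many immune cells cycled was asked of 4 shares, and no difference between the 6 resistant and the 2 parental tumors was detectable. Parental mice held 36 of 1122 and 21 of 605 cycling cells (3.21% and 3.47%), E0771-Res1 mice 105 of 2020, 16 of 604 and 33 of 937 (5.20%, 2.65% and 3.52%), and E0771-Res2 mice 35 of 1842, 48 of 1514 and 38 of 1961 (1.90%, 3.17% and 1.94%). The parental mean was 3.34% ± 0.186 (SD, n = 2 mice). E0771-Res1 averaged 3.79% ± 1.30 and E0771-Res2 averaged 2.34% ± 0.723 (SD, n = 3 mice in both). The resistant values lay on either side of the parental pair, and the difference of -0.277 percentage points gave an exact two-sided permutation p = 0.821 (28 splits, smallest possible p 0.0357).

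In every mouse a smaller share of myeloid cells than of T or NK cells was cycling. Parental mice gave 0.955% and 1.30%, E0771-Res1 mice 2.77%, 0.563% and 2.10%, and E0771-Res2 mice 1.32%, 1.22% and 1.07% (difference 0.376 percentage points, exact permutation p = 0.571). E0771-Res1 replicate 2 gave 3 of 533 cells, with an exact 95% binomial interval from 0.116% to 1.64%, and E0771-Res1 replicate 1 gave 48 of 1732, from 2.05% to 3.66%. These are the lowest and the highest mouse of the line. For T or NK cells, parental mice gave 15.0% and 20.6%, E0771-Res1 mice 19.8%, 18.3% and 12.5%, and E0771-Res2 mice 7.47%, 16.2% and 10.7% (difference -3.63 percentage points, exact permutation p = 0.393). In lineage-clean cells the means were higher, 28.75% in the parental and 25.4% in the resistant tumors (difference -3.37 percentage points, exact permutation p = 0.679). Without 1 mouse the differences ran from -0.704 to -0.0444 percentage points for all cells, from 0.123 to 0.565 for myeloid and from -6.43 to -0.839 for T or NK cells. Intervals cover counting error only.

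T or NK cells made up 70.8% ± 5.89 (SD, n = 2) of cycling cells in the parental and 56.3% ± 15.5 (SD, n = 6) in the resistant tumors (difference -14.5 percentage points, -19.5 to -10.4 without 1 mouse, exact permutation p = 0.286). Adjusted over the 4 shares, p ran from 0.762 to 0.821. A single line could not pass against the parental tumors, since 0.1 is the smallest p that 2 against 3 mice allow. For the share of all cells the exact permutation p was 0.8 for E0771-Res1 and 0.2 for E0771-Res2. With a gate of 2 UMIs, E0771-Res2 averaged 4.47% and the parental tumors 6.39%, without overlap (exact permutation p = 0.1). The signs of the myeloid and of the T or NK difference turned after thinning to 3000 UMIs with a gate of 2 UMIs, to -0.0947 and 1.22 percentage points.

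**Figure D1:**
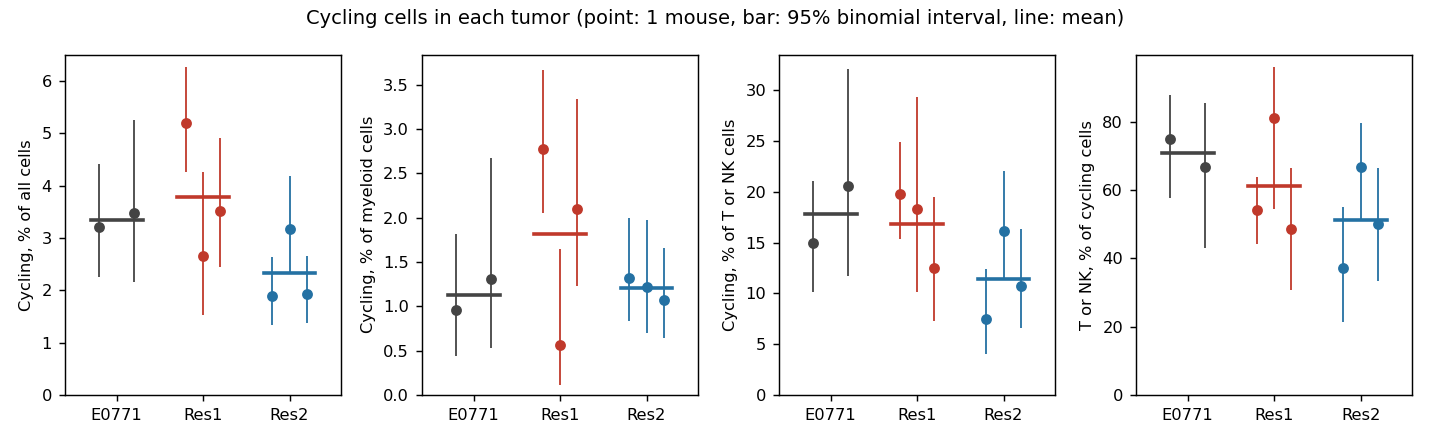
Share of cycling cells (%) among all, myeloid and T or NK cells and share of T or NK cells among cycling cells (%), by tumor line; each point is 1 mouse, bars are exact 95% binomial intervals and lines are group means. The T or NK shares (7.47% to 20.6%) lie above the myeloid shares (0.563% to 2.77%) in every mouse, and the points of the resistant lines overlap those of the parental line.

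T or NK cells made up a larger share of cycling than of non-cycling cells in all 8 mice. At 3000 UMIs per cell they made up 49.3% of cycling and 5.93% of non-cycling cells (mean over mice, difference 43.4 ± 14.2 percentage points, SD, n = 8 mice, higher in 8 of 8, exact sign-flip permutation p = 0.0078, the smallest that 8 mice allow). Both shares lie below those of the split at deposited depth, so the T or NK gate was here read on the thinned counts. The share of T or NK cells among cycling cells ran from 29.0% in E0771-Res2 replicate 1 to 75.0% in E0771-Res1 replicate 2, while among non-cycling cells it ran from 4.79% to 8.28%. In lineage-clean cells the shares were 48.2% and 2.93%. Without cells holding genes of both lineages, which left 12 cycling T or NK cells, they were 11.8% and 1.14% (difference 10.7 percentage points, higher in 5 of 8 mice, exact p = 0.0625).

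Among T or NK cells, those with a UMI of Cd8a or Cd8b1, the chains of the CD8 co-receptor, were enriched in the cycling set. They made up 36.6% of cycling and 14.9% of non-cycling T or NK cells (difference 21.6 percentage points, higher in 8 of 8 mice, exact sign-flip permutation p = 0.0078, adjusted over 8 gates 0.031). Cycling shares ran from 16.7% in E0771-Res2 replicate 1 to 50% in E0771 replicate 3 and E0771-Res1 replicate 3, and non-cycling shares from 7.92% in E0771-Res2 replicate 2 to 25% in E0771 replicate 1. In each mouse the non-cycling share lay below the cycling share, although the ranges overlapped. In myeloid cells, which lack CD8, the same gate took 0 of 132 cycling and 1.92% of non-cycling cells, at median depths before thinning of 14124 and 7463 UMIs against 15978 and 8175.5 in T or NK cells. In lineage-clean cells 47.2% of cycling and 31.1% of non-cycling T or NK cells passed (exact sign-flip permutation p = 0.0156, higher in 7 of 8 mice). The comparison of summed genes in lineage-clean cells, given below, called neither Cd8a nor Cd8b1.

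Cells with Foxp3, the regulatory T cell factor, made up 14.4% of cycling and 10.9% of non-cycling T or NK cells (exact sign-flip permutation p = 0.375), and the sign turned in lineage-clean cells, with 16.0% against 23.2% (exact p = 0.258). NK cells by the gate (Ncr1 or Klrb1c without Cd3 genes) made up 12.9% and 11.6% (exact p = 0.648), and 16.9% and 7.04% in lineage-clean cells (exact p = 0.031). This NK gate uses Ncr1, a gene of the split itself.

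More cycling than non-cycling myeloid cells passed a gate on C1q genes. C1qa, C1qb and C1qc encode the chains of complement C1q, which tumor macrophages secrete, and cells with at least 3 UMIs of these genes made up 69.7% of cycling against 41.7% of non-cycling myeloid cells (higher in 8 of 8 mice, exact sign-flip permutation p = 0.0078, adjusted 0.031). By mouse the cycling share ran from 62.5% to 89.1% and the non-cycling share from 31.5% to 52.2%, without overlap. E0771-Res1 replicate 2 had only 3 cycling myeloid cells in this share and both parental mice fewer than 10. Over all mice together, T or NK cells, which should lack C1q, passed the same gate in 23.8% of cycling and 36.7% of non-cycling cells, beside 74.2% and 45.0% of myeloid cells, so the non-cycling myeloid share was close to that background. In lineage-clean cells the T or NK shares were 3.17% and 10.9%, and the myeloid shares by mouse averaged 72.5% and 41.9% (exact p = 0.0078).

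At least 1 UMI of Ly6c2, a gene of inflammatory monocytes and of some T cells, was found in 57.2% of cycling and 77.2% of non-cycling myeloid cells (lower in 7 of 8 mice, exact sign-flip permutation p = 0.039, adjusted 0.078). E0771-Res1 replicate 2 was the exception, with all 3 cells positive. Without thinning the shares were 85.0% and 84.6%. T or NK cells passed the Ly6c2 gate in 44.4% of cycling and 65.1% of non-cycling cells, so the gate did not set monocytes apart. MHC class II genes passed their gate in 70.0% and 56.2% (higher in 6 of 8 mice, exact p = 0.039, adjusted 0.078), and in 29.6% and 42.5% of T or NK cells. Neither the Ly6c2 nor the MHC class II difference passed after adjustment, and each lost its unadjusted p under 0.05 when single mice were left out (E0771 replicate 1 or 3, for example, with -19.3 and -19 percentage points for Ly6c2 and 13.1 and 9.44 for MHC class II). Dendritic cells by Flt3 or Zbtb46 made up 5.22% and 2.12%, and cells with tumor or stromal genes 0.694% and 0.678%, neither with a detectable difference.

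**Figure D2:**
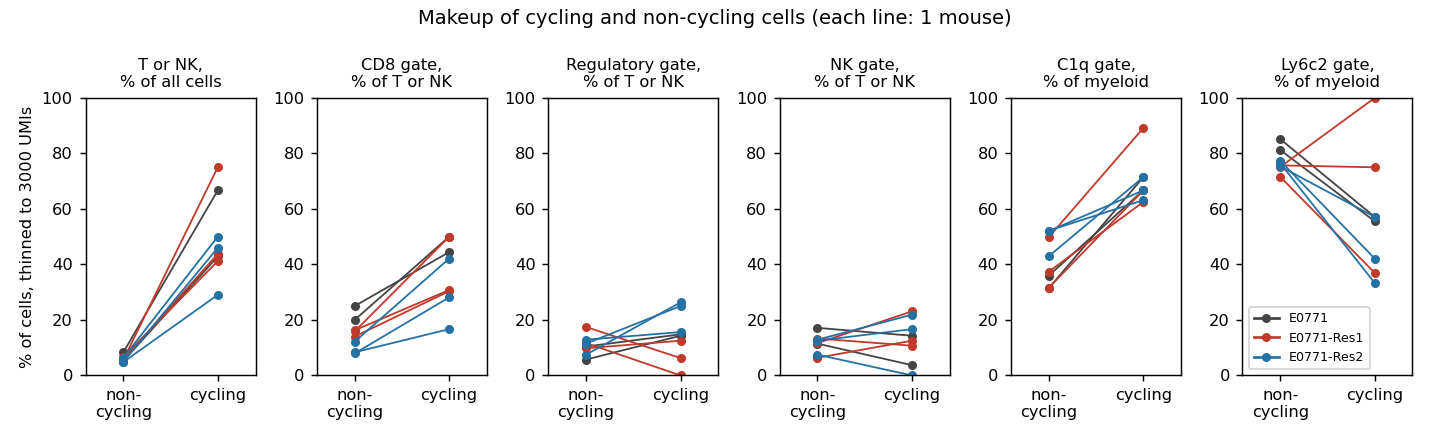
Share of cells (%) passing each gate among non-cycling and cycling cells thinned to 3000 UMIs, each line joining the 2 values of 1 mouse, colored by tumor line. The T or NK, CD8 and C1q lines rise in all 8 mice, and the Ly6c2 line falls in 7 of 8.

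No difference in the balance of S and G2M genes between the splits passed the test, and its size moved with depth. G2M genes made up 78.7 UMIs per 10000 and S genes 35.2 in cycling T or NK cells, and 55.2 and 25.4 in cycling myeloid cells. The log2 ratio of S to G2M UMIs per mouse was -1.17 in T or NK and -1.26 in myeloid cells (mean difference 0.0866 ± 0.393, SD, n = 8 mice, higher in 4 of 8, exact sign-flip permutation p = 0.539; lineage-clean difference 0.146, exact p = 0.414). In cells thinned to 3000 UMIs the difference was 0.448 (higher in 6 of 8 mice, exact sign-flip permutation p = 0.0859). Without thinning the log2 ratio by mouse ran from -1.41 to -0.84 in T or NK and from -1.81 to -0.769 in myeloid cells. The unthinned T or NK range thus lay inside the myeloid one. S genes outnumbered G2M genes in 49 of 191 T or NK cells (25.7%) and 20 of 141 myeloid cells (14.2%), and 14 and 10 cells lay within 2 UMIs of equality.

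The gate rests on genes that peak late in the cycle, and cells in early S phase could lie outside it. At 3000 UMIs, 53.4% of cycling T or NK and 26.5% of cycling myeloid cells held at least 10 UMIs of the S list. Of the cells with 1 or 2 UMIs of the pair 4.10% and 2.41% did, and of non-cycling cells 1.02% and 0.193% (7 of 684 and 13 of 6729). In number these were 101 cycling T or NK cells beside 13 with 1 or 2 UMIs of the pair and 7 with none, and 35 cycling myeloid cells beside 24 and 13. Cells rich in S genes thus lay outside the gate too, in the myeloid split about as many as inside it.

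**Figure D3:**
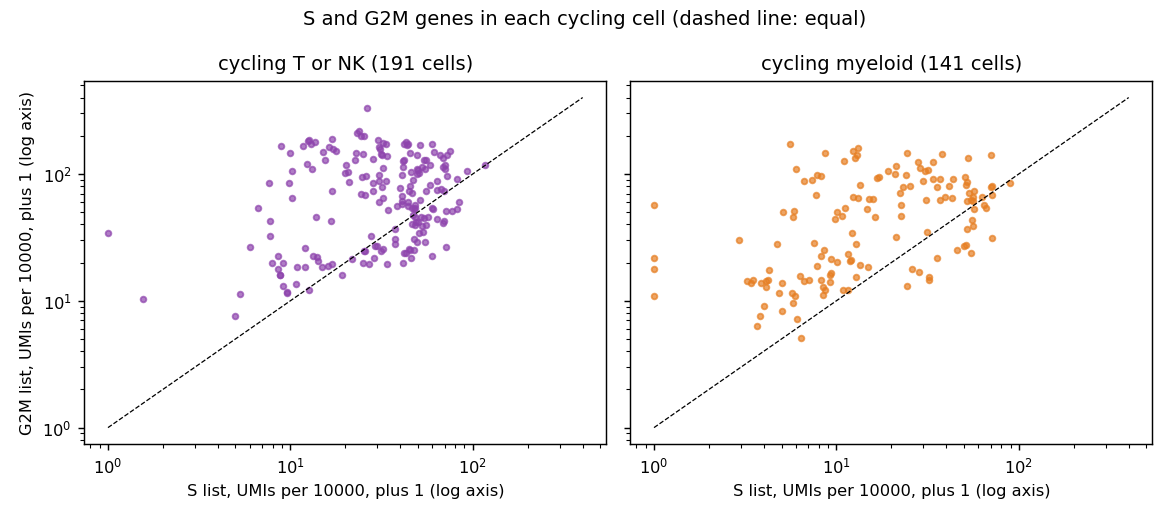
S list against G2M list (UMIs per 10000 plus 1, log axes) in each cycling T or NK cell (191) and myeloid cell (141), with a dashed line at equality. Most cells lie above the line, with 49 T or NK and 20 myeloid cells below it, and the G2M list reaches 332 in T or NK and 170 in myeloid cells.

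Genes were then compared between summed cycling and summed non-cycling cells of the same mouse. For the myeloid split 5 mice had at least 10 cycling cells, E0771-Res1 replicates 1 and 3 and E0771-Res2 replicates 1, 2 and 3, so this comparison holds no parental mouse. Values are given in that order as CPM, the UMIs of a gene scaled to a common total of summed UMIs. edgeR called 1842 of 10552 genes (17.5%) at an adjusted p under 0.05, 827 higher (7.84%) and 1015 lower (9.62%), whereas DESeq2 called 829 higher and 633 lower. Counts of list genes in the edgeR fit stand beside these shares.

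Most cell cycle genes stood higher, which the choice of cells fixes, and their counts carry no test. Of 46 replication genes 43 passed the threshold upward (median log2 difference 2.05), of 47 kinetochore, spindle and cytokinesis genes 46 (4.26), of 28 replication-dependent histone genes 26 (2.97), of 35 chromatin genes 34 (1.55) and of 21 genes of G1 cyclins, kinases and E2F factors 12 (1.01). The median over all tested genes was -0.028. Pclaf stood at 559, 319, 823, 296 and 410 CPM in cycling and 12.6, 9.41, 10.9, 8.80 and 12.5 in non-cycling myeloid cells (log2 difference 5.16 ± 0.20, SE). Stmn1, whose product destabilizes microtubules, stood at 1169, 530, 1315, 673 and 934 CPM against 28.02 to 40.7. Rrm2, the small subunit of ribonucleotide reductase, differed by 4.75 ± 0.32 on the log2 scale, Nusap1, a spindle protein, by 5.12 ± 0.26, and Uhrf1, which keeps DNA methylation through replication, by 3.91 ± 0.30. Pcna (1.19 ± 0.18) and Bub3, a spindle checkpoint protein (0.59 ± 0.18; 1-to-1 matched 0.469, adjusted p = 0.245), differed less, and non-cycling cells held them at 121 to 138 and 75.3 to 84.1 CPM. Ccnd1, cyclin D1, stood at 300, 482, 488, 478 and 322 CPM against 147 to 211.

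Outside the cell cycle lists, 8 genes are given for the largest rises among those with a mean log2 CPM of at least 5 and the same sign in every mouse. Cd81, a tetraspanin of the cell surface, stood at 527, 139, 139, 262 and 188 CPM in cycling and 109, 53.1, 49.6, 34.5 and 36.6 in non-cycling cells. The cycling value was higher in each of the 5 mice (log2 difference 1.85 ± 0.19, adjusted p = 2.79e-09). Gatm, the enzyme of the first step of creatine synthesis, stood at 166, 133, 105, 40.4 and 134 CPM against 19.2 to 30.7, without overlap (2.06 ± 0.21, adjusted p = 4.26e-09). Both rises were called against 1 depth-matched non-cycling cell per cycling cell too, at 1.27 and 1.45. Hmgn1, a nucleosome-binding protein, rose by 2.02 ± 0.17, Dnajc9, a histone co-chaperone, by 2.15 ± 0.23, Psip1, a chromatin reader, by 1.86 ± 0.22, Rif1, of replication timing, by 1.84 ± 0.23, Syce2 by 2.17 ± 0.24 and Ccdc34 by 2.33 ± 0.22. These 6 were also called against the 1-to-1 matched cells, at 1.11 to 2.29.

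Of 30 genes of ribosome biogenesis and MYC targets 10 rose and 0 fell (median 0.368). Npm1, nucleophosmin, rose by 0.60 ± 0.15 and Dkc1, the pseudouridine synthase dyskerin, by 1.32 ± 0.26. Against the 1-to-1 matched cells 3 of 21 rose, where 5.59% of all genes did, and neither gene was called (0.37 and 1.15). Of 44 nuclear genes of oxidative phosphorylation 0 rose and 1 fell (median -0.0826), and of 20 glycolysis genes 0 rose and 6 fell, among them Slc2a1, the glucose transporter GLUT1 (-1.12 ± 0.23, adjusted p = 0.000593; matched -0.90, adjusted p = 0.10). Among all genes tested against all non-cycling cells 7.84% rose and 9.62% fell.

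Monocyte genes were lower in cycling myeloid cells, with 18 of 19 lower and 1 higher (median -1.64, per mouse -2.5 to -0.732). Lyz2, lysozyme of monocytes and macrophages, stood at 5667, 8757, 2866, 3638 and 3069 CPM in cycling and 11310, 12790, 8758, 11750 and 7541 in non-cycling cells. It was lower in each mouse (-1.502 ± 0.18, adjusted p = 5.09e-08). Chil3, a chitinase-like secreted protein, stood at 36.8, 446, 17.4, 303 and 108 CPM against 420 to 1400 (-2.59 ± 0.29), and Hp, haptoglobin, at 23.6, 115, 0, 0 and 20.2 CPM against 129 to 290 (-2.88 ± 0.32). Vcan, versican, fell by 2.14, Tppp3 by 2.66 and Ear2, an RNase of the eosinophil-associated family, by 3.13 on the log2 scale. Without 1 mouse Vcan ran from -2.89 to -1.66 and Ear2 from -4.65 to -2.82. Ear2 had 7 UMIs in the cycling cells, with 3 of 5 mice at 0. S100a9, a calprotectin subunit, had 0 UMIs in the cycling cells of the 5 mice against 1444 UMIs (41.0 CPM) in the non-cycling cells. Over the summed group it was at least 18.7-fold lower when 3 counts over the group (2.19 CPM) are taken as the floor. Of the 1444 UMIs 551 came from 1 mouse. The lowest mouse held 2.186 CPM in non-cycling cells, no more than this floor, so no fall could be read there.

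The difference was smaller against non-cycling cells of like depth. With 5 matched cells per cycling cell 12 of 19 monocyte genes were lower (median -1.37), and with 1 matched cell 8 of 18 (median -0.874). Hp (-1.89), Vcan (-1.57) and Lyz2 (-1.14) were called against the 1-to-1 matched cells, and Chil3 was not (-1.26, adjusted p = 0.10). Counts of calls were lower in these fits, which hold fewer and deeper non-cycling cells, with 952 of 7897 genes with 5 matched cells (5.17% of genes lower) and 347 of 3987 with 1 (3.11% lower, 5.59% higher).

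Of 27 interferon response genes 23 were lower and 0 higher (median -0.77, per mouse -1.04 to -0.644). Isg15, a ubiquitin-like protein, stood at 1205, 1977, 1455, 935 and 1457 CPM in cycling and 2557 to 2956 in non-cycling cells, without overlap (-1.28 ± 0.16, adjusted p = 1.75e-07). Ifit3 fell by 1.39 and Ifit1bl1 by 2.18. These differences were smaller at matched depth: with 5 matched cells 10 of 27 were lower (median -0.46), and with 1 matched cell 0 of 27 (median -0.202). With 1 matched cell Isg15 stood at -0.29 (adjusted p = 0.30) and Ifit3 at -0.47 (adjusted p = 0.088). Ifit1bl1, which is not one of the 27, was still called (-1.54, adjusted p = 0.012).

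Of 28 TNF, NF-kB and chemokine genes 19 were lower (median -0.668). Cxcl2, a neutrophil attractant, stood at 1101, 2459, 1194, 1231 and 1175 CPM against 2053 to 3839 (-1.401 ± 0.16), and Ccl5, which attracts lymphocytes, at 689, 416, 736, 504 and 913 CPM against 1469 to 1724, without overlap (-1.58 ± 0.16). With 1 matched cell 1 of 26 was lower (median -0.111), and Ccl5 stood at -0.13 and Cxcl2 at -0.69, neither called. Of 10 immediate early genes, which also rise on tissue dissociation, 7 were lower, with Junb at -0.90 and Nr4a1 at -1.18. With 1 matched cell 1 was lower and 1 higher, with Junb at -0.27 and Nr4a1 at -0.31.

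Most genes of the lysosome and of lipid handling were lower at either depth. Of 28 genes 19 were lower (median -0.662), and 15 of 27 with 1 matched cell (median -0.744), where 9.62% and 3.11% of all genes were lower. Ctsb, cathepsin B, stood at 2945, 1754, 2544, 2979 and 2350 CPM against 3055, 2701, 5303, 3985 and 4752 (-0.91 ± 0.17; 1-to-1 matched -0.92, adjusted p = 0.0086). Fabp4, a fatty acid binding protein, stood at 8.83, 12.1, 13.1, 26.9 and 60.4 CPM against 32.8 to 113 (-2.15 ± 0.27; matched -2.20, adjusted p = 0.014). Of 25 complement and TREM2 macrophage genes 11 were lower and 1 higher, where 9.62% of all genes were lower and 7.84% higher. Gpnmb, a glycoprotein of lipid-laden macrophages, stood at 52.99, 42.2, 379, 222 and 195 CPM against 105, 143, 634, 481 and 623 (-1.44 ± 0.18; matched -1.36, adjusted p = 0.025), while Apoe, apolipoprotein E, stood at 7974, 3622, 2217, 3860 and 3969 CPM against 4497, 2933, 4706, 3460 and 4416, with overlap (-0.26 ± 0.19, adjusted p = 0.411).

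The median by mouse lay below 0 in all 5 mice for myeloid growth factor receptors (-1.31 to -0.106) and MHC class I genes (-0.683 to -0.365). It also did for p53 targets (-0.91 to -0.48) and for CDK inhibitors and quiescence (-0.522 to -0.28). All genes tested ran from -0.173 to -0.0342, and MHC class II genes went both ways (-1.02 to 1.27). Csf1r, the receptor of macrophage colony-stimulating factor, fell by 0.67 and Csf3r, that of the granulocyte factor, by 1.16 on the log2 scale (1-to-1 matched -0.46 and -0.52, neither called). B2m, the light chain of MHC class I, fell by 0.75 (1-to-1 matched -0.44, adjusted p = 0.101), and of 12 MHC class II genes 2 rose and 1 fell, with Cd74, the invariant chain, at -0.13 ± 0.21 (adjusted p = 0.767). Of 17 p53 targets 7 were lower and 0 higher. Beside the MHC class II and p53 counts, 7.84% of all genes tested were higher and 9.62% lower. Cdkn1a, which encodes the CDK inhibitor p21, stood at 287, 609, 383, 289 and 168 CPM in cycling and 493.3 to 732 in non-cycling cells (-1.04 ± 0.17, adjusted p = 1.77e-05; 1-to-1 matched -0.59, adjusted p = 0.048). Mxd1, an antagonist of MYC, fell by 1.19 and stood at -0.16 against the 1-to-1 matched cells. Hilpda, a lipid droplet protein induced in hypoxia, fell by 1.30 (matched -1.26, adjusted p = 0.0077). Krt8, a tumor keratin, stood at 5.89, 0, 17.4, 26.9 and 114 CPM against 4.07 to 8.28 (1.53 ± 0.49, adjusted p = 0.0278), with 17 of its 29 UMIs in E0771-Res2 replicate 3. Without cells that held tumor or stromal genes it stood at -0.295.

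**Figure D4:**
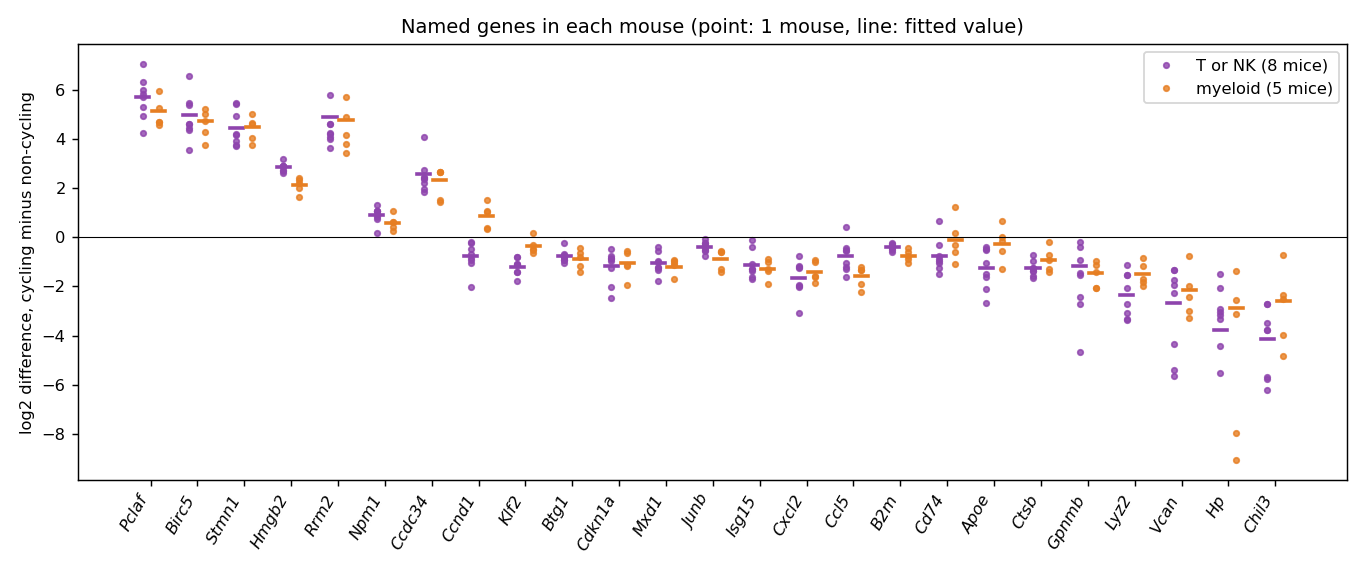
Difference in log2 CPM, cycling minus non-cycling, for 25 genes in each mouse (points) and as fitted (lines), for T or NK cells (8 mice) and myeloid cells (5 mice). Pclaf, Birc5, Stmn1 and Rrm2 lie about 5 above 0 in both splits, Klf2 lies below 0 in T or NK cells, and Lyz2, Vcan, Hp and Chil3 lie below 0 in both.

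For T or NK cells all 8 mice entered, with 13 to 57 cycling and 38 to 154 non-cycling cells each. Of 6879 genes 2765 were called (40.2%), 1444 higher (21%) and 1321 lower (19.2%). Counts of list genes in this fit stand beside these shares. Against 1 depth-matched cell per cycling cell 2209 of 5435 were called. In lineage-clean cells, where 5 mice remained, 1045 of 4104 were called, 13.9% of genes higher and 11.6% lower, the shares beside which the lineage-clean counts below stand. The median over all tested genes was 0.0327. All 44 replication genes tested passed upward (median 2.13), as did all 45 kinetochore, spindle and cytokinesis genes (4.20) and 21 of 22 histone genes (3.58), which again describes the choice. Values below are the lowest, the median and the highest CPM over the 8 mice.

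Pclaf ran from 537 over 753 to 1144 CPM in cycling and from 3.82 over 10.45 to 33.5 in non-cycling T or NK cells (log2 difference 5.69 ± 0.21). Kif11, the mitotic kinesin Eg5, stood 6.19 ± 0.26 higher, Hmmr 5.84 ± 0.31, Clspn, the checkpoint adaptor claspin, 5.13 ± 0.21, Brca1, of homologous recombination, 4.72 ± 0.35 and Hist1h1b, a linker histone, 4.92 ± 0.21. Esco2, the acetyltransferase that fixes sister chromatid cohesion, had 198 UMIs in cycling and 1 UMI in non-cycling T or NK cells. The cycling to non-cycling ratio was 417 after scaling to the summed UMIs of the genes kept, with an exact 95% counting interval from 74.1 to 16600. That interval covers counting error only and leaves out the spread between mice. By mouse Esco2 ran from 55.5 to 148 CPM in cycling and from 0 to 0.93 in non-cycling cells. Outside the lists Lockd, a noncoding RNA (3.33 ± 0.19), Diaph3, a formin (4.03 ± 0.34), Mns1 (3.05 ± 0.28), Hirip3 (2.72 ± 0.21), Ncapd3, a condensin II subunit (2.66 ± 0.18), Ube2t, of the Fanconi pathway (2.66 ± 0.27) and Ccdc34 (2.58 ± 0.19) rose. A rise in 8 of 8 mice was a condition of their choice, and each was called in lineage-clean cells too.

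Many genes of ribosome biogenesis rose in cycling T or NK cells. Of 28 ribosome biogenesis and MYC target genes 20 rose (median 0.513), and 17 of 23 in lineage-clean cells (median 0.76, 1 lower), where 13.9% of all genes tested rose. Against 1 depth-matched cell 16 of 25 rose, where 19.7% of all genes did. Npm1 ran from 1185 over 1908 to 2224 CPM in cycling and from 782 over 954 to 1046 in non-cycling cells, without overlap (0.90 ± 0.11, adjusted p = 1.22e-06; lineage-clean 1.01). Hspd1, the mitochondrial chaperonin, ran from 267 over 465 to 638 CPM against 144 over 170 to 225, again without overlap (1.30 ± 0.13; lineage-clean 1.28).

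Of 44 nuclear genes of oxidative phosphorylation 19 rose and 0 fell (median 0.233; lineage-clean 16 of 43, median 0.40), and of 26 proteasome genes 8 rose (median 0.19; lineage-clean 12 of 26, median 0.476). Among all genes tested 21% rose, and 13.9% in lineage-clean cells, which were not matched on depth. Atp5g3, a subunit of ATP synthase, ran from 438 over 510 to 682 CPM against 236 over 338 to 378, without overlap (0.66 ± 0.10; lineage-clean 0.81). Psma4, a proteasome subunit, rose by 0.52 ± 0.09, Mif by 0.49 ± 0.10 and Gapdh, the glycolytic enzyme, by 0.27 ± 0.09 (lineage-clean 0.72, 0.79 and 0.40). Against 1 depth-matched cell 7 of 44 genes of oxidative phosphorylation and 1 of 26 proteasome genes rose, both a smaller share than the 19.7% of all genes, and Gapdh stood at 0.07 (adjusted p = 0.62).

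Most genes of a list of CDK inhibitors and quiescence fell. Of its 18 genes 12 fell and 1 rose, where 19.2% of all genes fell. In lineage-clean cells 10 of 16 were lower, where 11.6% of all genes were. Klf2, the factor that keeps naive and memory T cells quiescent and circulating, ran from 96.2 over 231 to 308 CPM in cycling and from 264 over 460 to 828 in non-cycling T or NK cells (-1.22 ± 0.11, adjusted p = 3.39e-08, lower in 8 of 8 mice; lineage-clean -1.75). Btg1, an antiproliferative gene, ran from 770 over 906 to 1160 CPM against 1217 over 1453 to 1675, without overlap (-0.77 ± 0.10; lineage-clean -1.33). Plk2, a p53 target kinase, fell by 1.23 (lineage-clean -1.56), and Junb by 0.39 (lineage-clean -0.53; 1-to-1 matched -0.24, adjusted p = 0.082). All 10 immediate early genes tested were lower in lineage-clean cells, against 8 of 10 in all (11.6% and 19.2% of all genes were lower).

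T cell genes stood higher in cycling cells when all T or NK cells were taken, and not in lineage-clean cells. Cd8a ran from 49.4 over 295 to 451 CPM in cycling and from 48.8 over 85.4 to 276 in non-cycling cells (1.399 ± 0.20, adjusted p = 1.25e-05, higher in 7 of 8 mice), Cd8b1 rose by 1.48 ± 0.18, Trbc2, a T cell receptor constant chain, by 0.80 ± 0.12 and Pdcd1, which encodes PD-1, by 1.32 ± 0.18. In lineage-clean cells these stood at 0.30 (adjusted p = 0.47), 0.27 (0.483), 0.06 (0.792) and 0.26 (0.552). Of 11 T cell genes outside the gate 8 rose in all cells and 0 rose and 5 fell in lineage-clean cells, where 11.6% of all genes fell.

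Thy1 and 3 cytokine receptor genes also stood higher in all T or NK cells and not in lineage-clean cells, whereas Ctla4 and Cd4 were not higher in either. Il2rb, the shared beta chain of the IL-2 and IL-15 receptors, rose by 0.58 ± 0.12, Il21r by 0.79 ± 0.14, Il2ra by 0.75 ± 0.23 and Thy1 by 0.84 ± 0.14 in all cells, and stood at 0.08, 0.29, -0.16 and -0.06 in lineage-clean cells, none called. Ctla4, a checkpoint receptor also high on regulatory T cells, stood at 0.13 ± 0.17 in all cells (adjusted p = 0.584) and at -1.24 in lineage-clean cells (adjusted p = 0.00046), and Cd4 at -0.19 ± 0.22 (adjusted p = 0.516) and -1.52 (adjusted p = 0.000496). Of 8 regulatory T cell genes 6 fell in lineage-clean cells (11.6% of all genes).

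Of the cytotoxic genes, Gzmc, a granzyme, ran from 29.8 over 2744 to 6525 CPM in cycling and from 108 over 496 to 1870 in non-cycling T or NK cells (1.78 ± 0.55, adjusted p = 0.0133, higher in 6 of 8 mice; lineage-clean 3.23, adjusted p = 0.00256; 1-to-1 matched 1.86, adjusted p = 0.13). Gzma, granzyme A, ran from 129 over 527 to 1818 CPM against 765 over 1637 to 3630 (-1.56 ± 0.26, lower in 8 of 8 mice; lineage-clean -0.56, adjusted p = 0.395). Klri2, a lectin-like NK receptor, rose by 1.41 ± 0.15 (lineage-clean 1.54). Il17a, the cytokine IL-17A, had 2 UMIs in cycling and 205 in non-cycling T or NK cells. The non-cycling to cycling ratio was 48.6 after scaling to the summed UMIs of the genes kept, with an exact 95% counting interval from 13.3 to 404. That interval covers counting error only and leaves out the spread between mice. By mouse Il17a ran from 0 to 2.77 CPM in cycling and from 1.285 to 103 in non-cycling cells, with overlap.

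Interferon genes were lower in cycling T or NK cells, 25 of 27 (median -0.776, per mouse -1.34 to -0.409), and 9 of 23 in lineage-clean cells (median -0.584; 11.6% of all genes lower). Rsad2, viperin, ran from 53.3 over 156 to 262 CPM against 383 over 531 to 847, without overlap (-1.96 ± 0.17, adjusted p = 1.23e-08; lineage-clean -1.59). Isg15 fell by 1.11 ± 0.15 and stood at -0.29 in lineage-clean cells (adjusted p = 0.191).

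Genes of myeloid cells were among the largest decreases of the T or NK comparison, beside the pan-myeloid levels given above. All 10 pan-myeloid genes were lower (median -1.24), with Lyz2 from 826 over 1569 to 2308 CPM against 4766 over 6903 to 12170, and 18 of 19 monocyte genes were lower, with Chil3 at -4.14 ± 0.28, Hp at -3.78 ± 0.30, F13a1 at -3.15 ± 0.34, Ifitm6 at -2.99 ± 0.28, Fn1 at -2.88 ± 0.31, Slpi at -2.78 ± 0.24 and Vcan at -2.69 ± 0.36. Apoe fell by 1.25, Ctsb by 1.26 and Ccl5 by 0.77. The decreases were smaller in lineage-clean cells, with 3 of 8 pan-myeloid genes (median -0.66) and 4 of 9 monocyte genes (median -0.573) lower, beside 11.6% of all genes. There Lyz2 stood at -0.965 (adjusted p = 0.000111), Apoe at -0.971 (adjusted p = 0.000397), Ctsb at -0.572 (adjusted p = 0.0143) and Ccl5 at -0.691 (adjusted p = 0.0192; 1-to-1 matched -0.386, adjusted p = 0.0868), and the 7 monocyte genes named above were too low to be tested. The share of these decreases that comes from RNA of other cells or from paired cells was not tested.

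**Figure D5:**
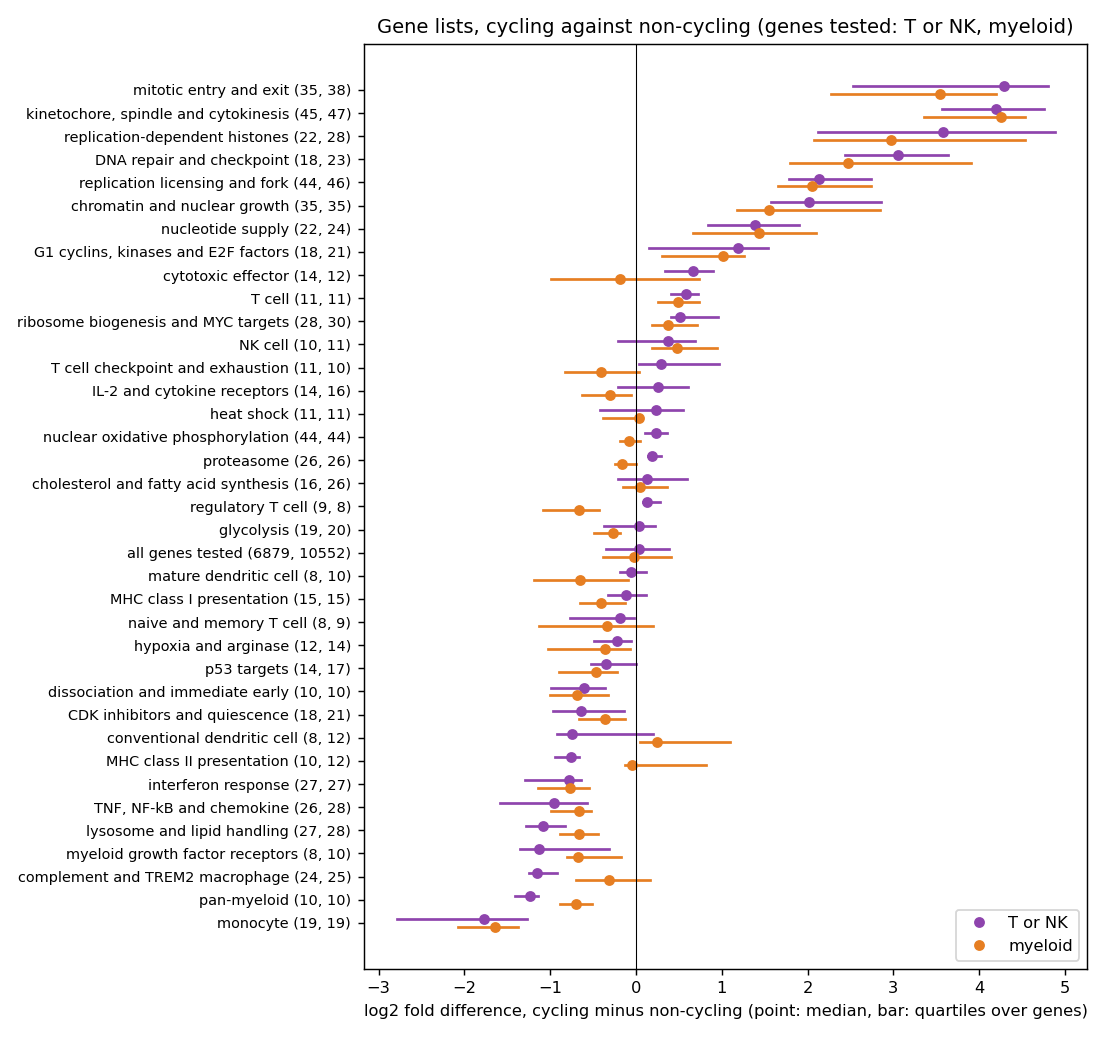
Median and quartiles, over genes, of the log2 difference of cycling minus non-cycling cells for each gene list in T or NK and myeloid cells, with the numbers of genes tested in brackets. Cell cycle lists lie at 1 to 4, all tested genes at -0.028 and 0.0327, and monocyte genes at -1.64 and -1.77.

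Genes tested in both splits numbered 6804, of which 1601 were called in myeloid and 2735 in T or NK cells. Called in both were 1293 genes (80.8% of the myeloid and 47.3% of the T or NK calls), 570 higher and 705 lower in both and 18 in opposite directions. The 2 comparisons share mice but no cells. Their calls include the cell cycle genes that the choice of cells fixes, and cycling cells were deeper in both splits.

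Whether the difference between cycling and non-cycling cells itself differed between the splits was tested in the 5 mice that held both. Of 8371 genes 163 were called (1.95%), 38 with a more positive difference in T or NK cells (0.454%) and 125 with a more negative one (1.49%). Pclaf (0.16 ± 0.40, adjusted p = 0.915) and Birc5 (-0.17 ± 0.41, adjusted p = 0.909) were not among them. Ccnd1 rose in myeloid cells and stood at 41.5 over 83.5 to 115 CPM in cycling and 84.0 over 125 to 199 in non-cycling T or NK cells (difference of differences -1.63 ± 0.29, adjusted p = 0.00502). Klf2 differed by -1.01 ± 0.21 (adjusted p = 0.013), and Eno1 (0.72) and Psma4 (0.79) were more positive in T or NK cells.

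More negative in T or NK cells were also macrophage genes, Pf4 (-2.71 ± 0.36), Mrc1, the mannose receptor (-2.48 ± 0.42), Stab1 (-2.27 ± 0.56) and Nrp2 (-2.19 ± 0.38). Pan-myeloid RNA was itself lower in cycling than in non-cycling T or NK cells (65.3 and 168 UMIs per 10000 over all mice). Its part in these differences was not tested. More positive were Nr4a2, a nuclear receptor induced by T cell receptor signals (2.25 ± 0.39), Serpinb9, a granzyme B inhibitor (1.80 ± 0.39), Tnfsf10, which encodes TRAIL (1.79 ± 0.39), and Ms4a4b (1.56 ± 0.21). Against 1 matched cell per cycling cell 8 of 20 named genes were still called, and Serpinb9 (1.58, adjusted p = 0.185), Tnfsf10 (1.10, 0.484), Ms4a4b (1.16, 0.0751), Mrc1 (-1.90, 0.11), Stab1 (-1.73, 0.308), Eno1 (0.861, 0.0932) and Psma4 (0.807, 0.0531) were not. The count of calls was 20, 91 and 35 without E0771-Res1 replicates 1 and 3 and E0771-Res2 replicate 2. Over the fits without 1 mouse Tnfsf10 ran from 1.59 to 2.94 and Serpinb9 from 1.2 to 2.12. In lineage-clean cells, with 4 mice, 41 of 4317 genes were called. Of the 20 named genes 2 were still called, Klf2 (-1.52, adjusted p = 0.0198) and Tuba4a, while 16 lost the call and 2 turned sign. Ccnd1 (-2.32, adjusted p = 0.147) and Pf4 (-1.83, adjusted p = 0.229) were among the 16.

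Between tumor lines almost no gene of the cycling cells passed the threshold. In cycling myeloid cells E0771-Res2 against E0771-Res1 gave 0 of 3555 genes (0%, 150 at an unadjusted p under 0.05, 5 by DESeq2), and 64 and 66 genes without E0771-Res1 replicates 1 and 3, where that line was left with 1 mouse assumed to vary like the other line. No parental mouse had 10 cycling myeloid cells, and with at least 5 cells per mouse E0771-Res1 against E0771 gave 0 of 3504 (146 unadjusted, 0 by DESeq2) and E0771-Res2 against E0771 gave 1 (0.0285%, 194 unadjusted, 3 by DESeq2). The gene was Gpnmb. On the scale of the fit it stood at 11.1 and 16.8 CPM in the parental mice, at 61.4 and 49.5 for E0771-Res1 and at 438, 258 and 215 for E0771-Res2 (log2 difference 4.46 ± 0.66, adjusted p = 0.0448). The parental values rest on 9 and 7 cells, and the call was lost without E0771 replicate 1 or 3 or any E0771-Res2 mouse, where 0 genes were called and the log2 difference was 4.08 to 4.73, while 4 and 5 genes were called without E0771-Res1 replicates 1 and 3. Non-cycling myeloid cells held Gpnmb at 123 and 128 CPM in parental mice, 105, 143 and 143 for E0771-Res1, and 634, 481 and 623 for E0771-Res2. In cycling T or NK cells resistant against parental tumors gave 0 of 4965 genes (240 unadjusted, 3 by DESeq2), with 1 or 2 genes when E0771 replicate 3, E0771-Res1 replicate 2 or 3 or E0771-Res2 replicate 2 was left out.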

How the data were processed

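The deposited values were UMI counts per gene and cell, which the authors made with Cell Ranger 6.1.2 (per the file headers) against mm10 (per the processing notes of the submitters) and split by mouse with multiplexing oligos, and cells were kept here by the study's filter of 500 to 6000 genes and under 10% mitochondrial UMIs. No clustering and no doublet caller was run, and cells with genes of both lineages were left out as an alternative instead. Counts were summed per mouse, split and state after genes of the mt-, Rpl, Rps and Gm families were dropped (23649 of 32285 genes stayed). Tests used edgeR 4.0.16 on sums that held 10 or more cells (quasi-likelihood test, TMM scaling, mouse as block in the comparisons of cycling with non-cycling cells, Benjamini-Hochberg adjusted p under 0.05), in R 4.3.3, and again with DESeq2 1.42.0. Every adjusted p in the gene comparisons is edgeR's, and Mki67, Top2a and the genes of the T or NK gate were left out of the tests. No parental mouse reached 10 cycling myeloid cells, so the contrasts with E0771 used at least 5 cells, against the plan. Shares were compared between tumors by exact permutation of mice and between states by exact sign flips over 8 mice (256 flips), in Python 3.11.15 with scipy 1.17.1. Cells were thinned to 3000 UMIs for the gate shares between states, whereas shares of cycling cells by tumor used deposited depth. The fits were tested on simulated data.

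The members, gene lists and tests were chosen with earlier results of these data known. The lineage-clean cells and the 1-to-1 matched cells were chosen after seeing the data. Named genes were, per list, the most abundant tested gene and the called gene with the largest change in the majority direction, then the 8 largest changes in each direction outside the cell cycle lists with a mean log2 CPM of at least 5 and 1 sign in every mouse, then Pclaf and Birc5. Ear2, Esco2, Il17a, S100a9 and Krt8 are given with their UMIs because one side held few. Samples of a group are separate mice per the labels. Promoters came from RefSeq, build GRCm38.p6. The parental mouse numbered 2 was not analysed here, and some genes are not reported here.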

Additional observations from a re-analysis of the deposited data

Results flagged for a closer look

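Single mice stood apart from the other mice of a comparison in 14 of 145 measures, where chance flags about 1 in 20. In cycling against non-cycling myeloid cells the log2 difference of Gatm was 0.736 in E0771-Res2 replicate 2, that of S100a9 -2.32 in E0771-Res2 replicate 1 and that of Mxd1 -1.71 in E0771-Res1 replicate 1. Cycling myeloid cells held 0 UMIs of S100a9 in all 5 mice, so its differences rest on the prior count and on the non-cycling level. In T or NK cells Rrm2 stood at 5.81 and Rsad2 at -3.98 in E0771 replicate 3, Ube2s at 1.77 and Ccdc34 at 4.08 in E0771-Res1 replicate 3, Il21r at 1.47 in E0771-Res1 replicate 2, and Btg1 at -0.243 and Hirip3 at 2.9 in E0771-Res2 replicate 1. The difference between the splits was -6.84 for Nrp2 and -5.96 for Plau in E0771-Res2 replicate 1 and -0.0142 for Eno1 in E0771-Res2 replicate 3. The share of myeloid cells with tumor or stromal genes was 4.73 percentage points higher in cycling cells of E0771-Res2 replicate 3.

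The difference between cycling and non-cycling cells was itself unequal in T or NK and myeloid cells by the interaction term of edgeR for 20 named genes. It was more positive in T or NK cells for Nr4a2 (2.25), Serpinb9 (1.8), Tnfsf10 (1.79), Ms4a4b (1.56), Glipr2 (1.52), Chchd10 (1.49), Uap1 (1.4), Tuba4a (1.3), Psma4 (0.792) and Eno1 (0.719). It was more negative for Pf4 (-2.71), Mrc1 (-2.48), Hfe (-2.31), Stab1 (-2.27), Nrp2 (-2.19), Plau (-1.96), Rnase4 (-1.95), F11r (-1.84), Ccnd1 (-1.63) and Klf2 (-1.01). In lineage-clean cells Klf2 and Tuba4a passed the threshold among these.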

How the results depend on the processing

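Resistant minus parental shares turned sign in cells thinned to 3000 UMIs, to -0.0947 (gate of 2 UMIs) and -0.497 percentage points (gate of 1 UMI) for myeloid cells and to 1.22 (gate of 2 UMIs) for T or NK cells. At deposited depth NK cells stood at -1.23 and Ly6c2 at 0.441, and at 2000 UMIs NK cells at -0.257 and MHC class II at 10.7. Without cells holding genes of both lineages, which left 12 cycling T or NK cells, the T or NK share stood at 10.7, CD8 at 42.5, regulatory cells at -25.1 and MHC class II at 11. In lineage-clean cells regulatory cells stood at -7.23, NK cells at 9.88, Ly6c2 at -19.1 and tumor or stromal cells at -0.528. Leaving out 1 mouse gave -0.191 to 2.55 for NK cells, -26.5 to -16.8 for Ly6c2, 9.44 to 16.5 for MHC class II and -0.657 to 0.212 for tumor or stromal cells. The CD8, C1q and T or NK differences kept their direction without any 1 mouse, at 19.8 to 23.5, 26.3 to 30.5 and 39.7 to 46.1, with unadjusted p under 0.05 (7 mice allow 0.0156 at the least). Adjusted p was not computed there.

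Calls in myeloid cells were 952 with 5 matched cells, 347 with 1 and 1394 to 1686 without 1 mouse, and in T or NK cells 1045 in lineage-clean cells and 2294 to 2742 without 1 mouse. Without the replicate block they were 1808 and 2326. For the difference between splits they were 340 with no filter on low counts, 429 and 16 with gates of 2 and 5 UMIs, 251 without tumor or stromal gene cells, 41 in lineage-clean cells, 357 with sums of at least 5 cells, 79 and 103 with 5 and 1 matched cells (T or NK cells were matched in part only), 86 with no replicate block and 20 to 158 without 1 mouse. E0771-Res2 against E0771-Res1 gave 5 by DESeq2, 55 with no filter, 1 with a gate of 2 UMIs and 0 to 66 without 1 mouse. E0771-Res1 against E0771 gave 19 with no filter. E0771-Res2 against E0771 gave 3 by DESeq2, 20 with no filter, 0 with a gate of 2 UMIs, without tumor or stromal gene cells and in lineage-clean cells, 6 without cells of both lineages and 0 to 5 without 1 mouse. Resistant against parental T or NK cells gave 3 by DESeq2, 46 with no filter, 1 with a gate of 2 UMIs, 6 in lineage-clean cells and 0 to 2 without 1 mouse. With a replicate block on the mouse numbers these 4 contrasts gave 18, 1, 3 and 0 calls. Deviations of same-numbered mice gave correlations of -0.0296 to 0.0724. Some of these sums held few cells, so the correlations could not settle whether the numbers pair the mice.

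Signs of single genes turned for Apoe (0.175 with a gate of 2 UMIs, 0.0609 with at least 5 cells, -0.486 to 0.00357 without 1 mouse), Cd74 (0.117 with a gate of 2 UMIs, 0.045 with no replicate block, -0.45 to 0.133 without 1 mouse) and Krt8 (-0.295 without tumor or stromal gene cells) in myeloid cells, and for Cd4 (0.255 with 1 matched cell), Ctla4 (-0.0379 with a gate of 2 UMIs, -1.24 in lineage-clean cells, -0.0786 to 0.242 without 1 mouse), Il2ra (-0.16) and Thy1 (-0.0598, both lineage-clean) in T or NK cells. Between splits they turned for Birc5 (0.759 with a gate of 2 UMIs, 0.0724 with at least 5 cells, -0.323 to 0.0212 without 1 mouse), Pclaf (-1.11 with a gate of 5 UMIs, -0.0468 with 5 matched cells, -0.147 to 0.825 without 1 mouse), Chchd10 (-0.349) and Hfe (3.5, both lineage-clean). The cause of these changes was not tested. A gate of 5 UMIs for the myeloid tumor contrasts and removal of cells with genes of both lineages for the T or NK contrasts left too few cells and were not run.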
